A study of Mus musculus with 10 samples.

Results

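The ATP-binding cassette (ABC) efflux pumps of the blood–brain barrier were examined in brain endothelial cells (BECs) as a set of 8 genes, Abcb1a, Abcb1b, Abcg2, Abcc1, Abcc4, Abcc5, Abca1 and Abca2. The genes were chosen by name as ABC transporters of drugs, conjugates or lipids, and not by their values. Earlier results of these data were known when they were chosen. All 8 were among the 14106 genes measured. The samples were 10 libraries of CD31+CD45- BECs collected with microbeads from the dissociated cortex of female mice that were 1 year old, of which 5 were APP/PS1 libraries and 5 were libraries of control (WT) animals of equal age and of the same C3H/BL6 background. APP/PS1 mice carry the transgenes APPSwe and PSEN1DE9, which encode mutant amyloid precursor protein and mutant presenilin, and they deposit amyloid-β (Aβ) in the brain. The sources used here give neither the promoter of the transgenes nor the number of animals behind a library, so each SD and p value describes the spread between libraries, which may be technical. The comparison asked whether the transcripts of the efflux pumps differ with genotype in these cells.

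ABC transporters use ATP to move their substrates across membranes. In brain capillaries, P-glycoprotein and the breast cancer resistance protein sit in the blood-facing membrane and return many lipophilic drugs to the blood, and they limit how far such drugs enter the brain. In rodents P-glycoprotein is encoded by a pair of genes, Abcb1a and Abcb1b. The multidrug resistance proteins of the Abcc subfamily carry organic anions, glutathione conjugates and nucleotides. Abca1 loads cholesterol and phospholipid onto apolipoproteins, and Abca2 is an intracellular lipid transporter best known from myelinating cells. P-glycoprotein and Abca1 are studied in Alzheimer's disease because Aβ is transported by the former and because the latter sets the lipid content of apolipoprotein E, which binds Aβ.

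The levels are log2 CPM (counts scaled to an effective library size) as the authors deposited them, after their correction for batch. The effective size recovered from the values was between 0.964 and 1.034 times the total of the adjusted counts of a library. The adjusted counts behind them summed to between 22371766 and 126686149 in a library, with the lowest totals in replicate 1 of both groups. The correction made the control and APP/PS1 libraries of a replicate number near mirror images around their group means, with rank correlations of their deviations between -0.9986 and -0.9885 across 10873 genes. The SDs below are therefore those of corrected values, and the test compares the libraries within each of the 5 replicate pairs. Where a library is low in its group and its partner high in the other, these are not separate cases. The summed level of 16 endothelial markers lay between 14.93 and 15.04 log2 CPM in control libraries and between 14.98 and 15.09 in APP/PS1 libraries, and none of the 16 was at 0 in any library. The summed level of 11 mural cell markers was lower, between 9.27 and 10.01 in control and between 8.33 and 9.27 in APP/PS1 libraries. In bulk samples, fewer cells of a type and less RNA per cell cannot be told apart.

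Promoter sequence is shown for 3 of the pumps, since 7 of the 8 genes have an entry in the RefSeq promoter table of GRCm38.p6 and these 3 span the set: Abca1 varied most between the pairs, Abcb1b was the weakest pump and Abcg2 was among the 3 strongest. Each window holds the 250 bases before the RefSeq start, 5′ to 3′ on the strand of the gene, with motif matches on either strand in capitals. The Abca1 window, chr4:53159896-53160145 on the minus strand, and the Abcb1b window, chr5:8797897-8798146 on the plus strand, end directly before the first base of their GENCODE gene models. The Abcg2 window, chr6:58640296-58640545 on the plus strand, lies inside the annotated span of its gene, at 1 of 3 RefSeq starts, where 6 of 13 GENCODE transcripts begin within 50 bases.
Abca1: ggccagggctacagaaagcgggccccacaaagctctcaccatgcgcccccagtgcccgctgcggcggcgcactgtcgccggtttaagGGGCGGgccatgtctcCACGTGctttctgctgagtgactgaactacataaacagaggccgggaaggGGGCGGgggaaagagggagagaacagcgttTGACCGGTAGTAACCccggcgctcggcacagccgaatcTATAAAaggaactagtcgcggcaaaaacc
Abcb1b: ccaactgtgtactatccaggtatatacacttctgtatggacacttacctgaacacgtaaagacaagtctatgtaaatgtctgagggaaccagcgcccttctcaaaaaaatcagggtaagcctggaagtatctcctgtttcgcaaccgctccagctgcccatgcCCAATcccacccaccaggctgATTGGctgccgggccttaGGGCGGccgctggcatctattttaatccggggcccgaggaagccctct
Abcg2: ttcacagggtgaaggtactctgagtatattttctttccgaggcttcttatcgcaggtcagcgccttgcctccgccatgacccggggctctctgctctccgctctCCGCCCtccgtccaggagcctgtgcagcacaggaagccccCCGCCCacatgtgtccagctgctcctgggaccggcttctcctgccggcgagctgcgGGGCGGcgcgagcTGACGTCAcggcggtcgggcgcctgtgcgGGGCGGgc

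The capitals mark the GC box GGGCGG, which 32.7% of 32851 RefSeq windows of this length hold, the CCAAT box CCAAT (33.8%), the TATA box TATAAA (12.4%), the E-box CACGTG (6.02%) and the cyclic AMP element TGACGTCA (1.55%). They also mark TGACC and TAACC with any 5 bases between them, the form of the liver X receptor (LXR) element known from Abca1, which 15 windows hold (0.0457%). That pattern was taken from this gene, so its presence there is no finding. The matches of Abca1 begin 163, 147, 97, 67 and 29 bases before the start, with the LXR element at 67 and the TATA box at 29. Abcb1b has a pair of CCAAT boxes, at 87 and 66 bases, and a GC box at 48 bases. Abcg2 has 4 GC boxes, at 146, 106, 50 and 8 bases, with a cyclic AMP element at 37 bases. None of the matches shown overlaps another. The G and C content of the windows was 61.6% for Abca1, 52.8% for Abcb1b and 67.6% for Abcg2.

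None of the 8 pumps differed between APP/PS1 and control BECs beyond the spread between the pairs. At an adjusted p under 0.05 (limma, Benjamini-Hochberg over 14106 genes), 0 of 8 were called, and the background was the same, with 0% of all genes called. At an unadjusted p under 0.05 the count was again 0 of 8, against 8.03% of all genes (5.91% lower and 2.13% higher). The limma-voom fit also called 0 of 8. The log2 fold change was above 0 for 6 of the 8 and below 0 for 2, where 48.2% of all genes lay above 0 and 51.8% below. Its median was 0.04 over the 8 pumps and -0.0038 over all genes. The 16 endothelial markers were 12 higher and 4 lower, with a median of 0.06. In pairs 1 to 5 the summed level of the 8 pumps differed by -0.0026, -0.019, 0.157, 0.050 and -0.019 log2 units, and that of the endothelial markers by -0.013, -0.053, 0.159, 0.076 and -0.0089. Pair 3 had the largest difference in both sums. The sum of the pumps is weighted by level, and mostly reflects Abcb1a, Abcg2 and Abcc4, with mean CPM of 2494, 895 and 794 against at most 111 for the others. In pair 3, Abcc1 and Abca2 differed by -0.08 and -0.17, and the other pumps were above 0. The part of the endothelial markers in the values of the pumps was not tested. No pump moved in the same direction in all 5 pairs, which 7.99% of all genes did. The group ranges overlapped for all 8 pumps, whereas they did not overlap for 7.88% of all genes. Since batch correction left the libraries of a pair as near mirror images, these are nearly the same result and not separate ones. With 5 pairs, an exact sign-flip test of a single gene cannot give a two-sided p below 0.0625.

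**Figure D1:**
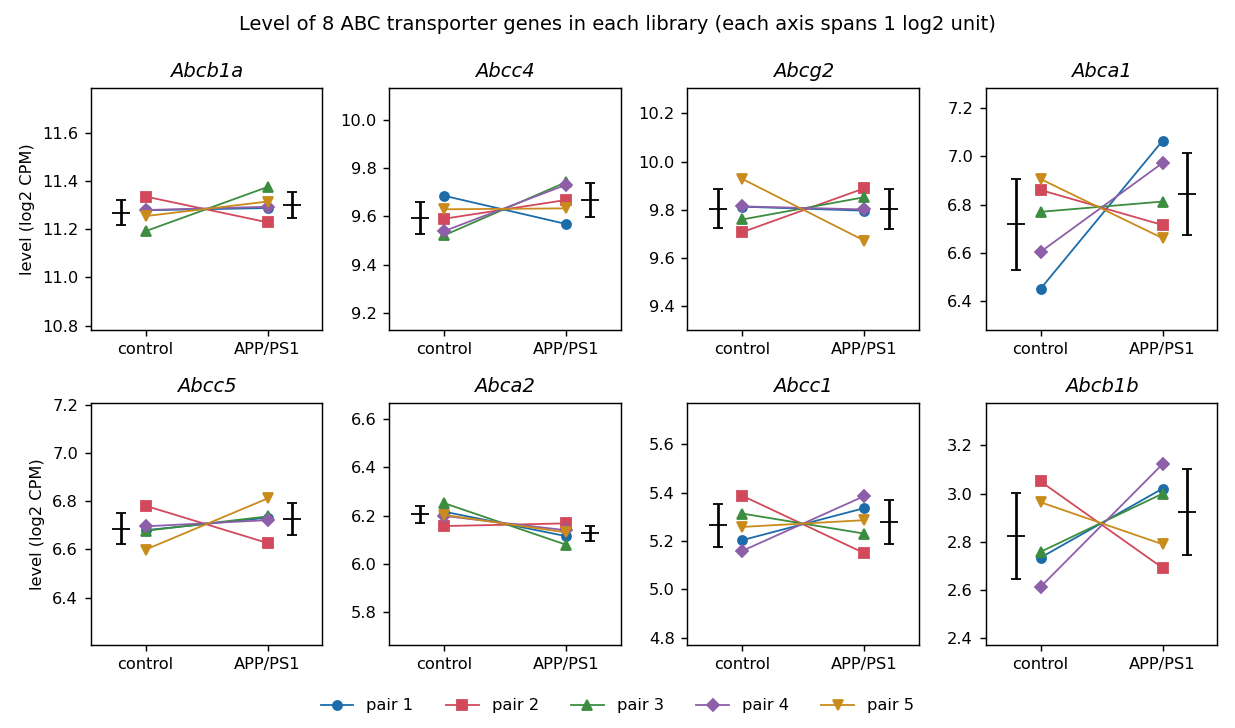
Level of each pump (log2 CPM, vertical axis) in the 5 control and 5 APP/PS1 libraries, with a line joining the libraries of a replicate pair and a bar for the group mean ± SD. Each panel spans 1 log2 unit. The pairs of a gene share nearly the same midpoint after batch correction, so their lines cross in each panel. Abca1 and Abcb1b show the widest scatter while Abca2 shows the narrowest.

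The pumps differed widely in level. Compared per length, as CPM per kb of annotated exon, Abcb1a had a mean of 455 over the 10 libraries (range 427 to 485) and ranked 46 of 14106 genes. Abcc4, at 124 (115 to 134), and Abcg2, at 110 (100.1 to 119), came next, ranking 255 and 297. The ranges of these latter pumps overlapped across libraries, with a ratio of means of 1.13, but within each of the 10 libraries Abcc4 was above Abcg2. This order depends on the exon lengths used, 6389 bases for Abcc4 and 8153 for Abcg2. In CPM without division by length it was reversed, with means of 895 for Abcg2 and 794 for Abcc4. Abcb1a was 3.66-fold above Abcc4 and their ranges did not overlap. The 3 strongest pumps made up between 95.2% and 95.8% of the per-length signal of the 8 genes in a library. Abcb1a alone gave between 61.4% and 64.7%.

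The remaining pumps began 10.3-fold below Abcg2, with Abca1 at 10.7 CPM per kb (8.45 to 12.9), Abcc5 at 9.78 (9.07 to 10.5) and Abca2 at 8.61 (8.10 to 9.13), and neighbours in this order had overlapping ranges. Abcc1 followed at 2.56 (2.35 to 2.77) and Abcb1b at 0.920 (0.762 to 1.09), ranking 9440 and 11775 of 14106. Each was separated from the pump above it without overlap, by 3.36-fold for Abca2 over Abcc1 and 2.78-fold for Abcc1 over Abcb1b. Among the 33 ABC genes in the table, the 8 pumps stood at positions 1, 2, 3, 13, 14, 15, 23 and 29, and together they carried between 75.3% and 77.7% of the per-length signal of all ABC genes in a library. The strongest ABC genes outside the set were Tap2, a subunit of the peptide transporter of antigen presentation, at 33.1 CPM per kb, then Abcf1 at 24.1, Abcf2 at 20.6 and Abcf3 at 16.9, which encode ABC proteins with no membrane-spanning part, and the lipid transporter Abca3 at 18.9.

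**Figure D2:**
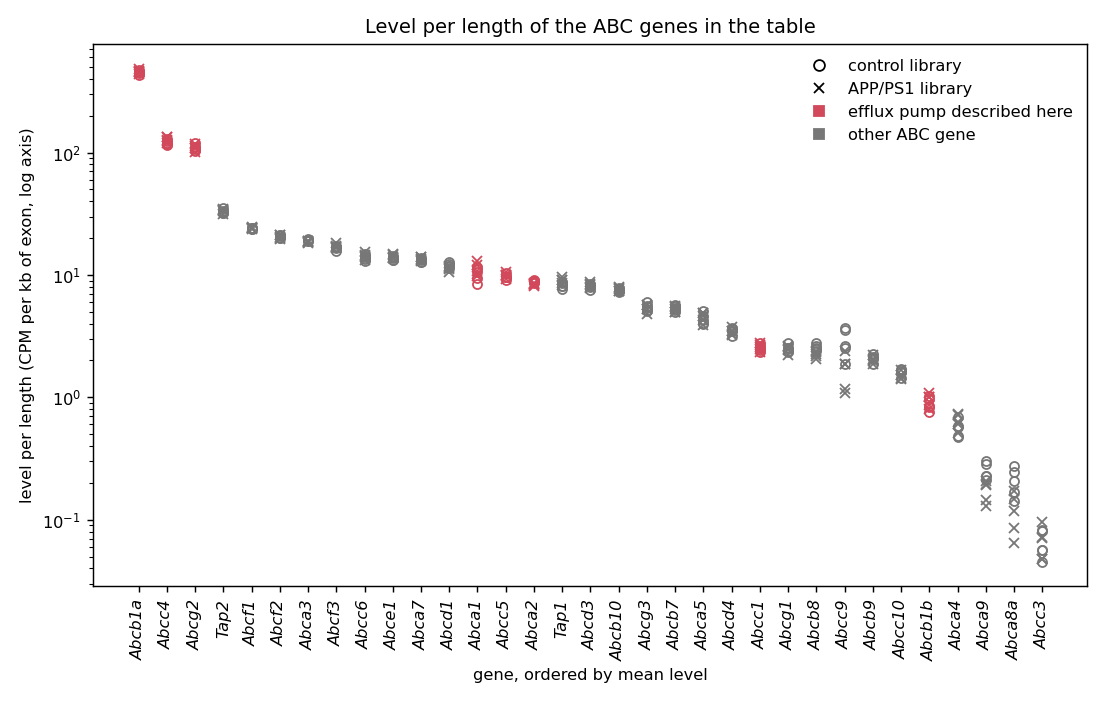
Level per length (CPM per kb of exon, log axis) of the 33 ABC genes in the table, ordered by mean level, with circles for control and crosses for APP/PS1 libraries and the 8 pumps in red. Abcb1a, Abcc4 and Abcg2 stand above all others, and the remaining 5 pumps lie between 10.7 and 0.920 CPM per kb.

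Abcb1a (ENSMUSG00000040584, chr5:8660077-8748575, plus strand of GRCm38) is the P-glycoprotein gene of brain capillaries. Its level in control replicates 1 to 5 was 11.28, 11.34, 11.19, 11.28 and 11.25 log2 CPM, and in APP/PS1 replicates 1 to 5 it was 11.29, 11.23, 11.37, 11.29 and 11.31. The lowest and the highest library were those of replicate 3, 1 in each group, and the groups overlapped. The means were 11.27 ± 0.05 and 11.30 ± 0.05 (SD, n = 5 each). The log2 fold change was 0.03 with an SE of 0.05 (limma, adjusted p = 0.918). The 95% interval ran from -0.10 to 0.17, which is from -6.92% to 12.3% relative to control. Without replicate 3 the fold change was -0.0059, so its sign rests on that pair.

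Abcb1a was also among the steadiest genes of its level. The SD of its 5 paired differences was 0.105 log2 units, where the median of the 33 genes within 0.5 log2 units of its level was 0.211, and 6.06% of those genes had a smaller SD. Its transcripts share 553 exon bases with Gm42686, an antisense gene with a mean of 1734 adjusted counts, and the strand setting of the read counting is not given in the sources used here. Abcb1a itself had at least 55360 adjusted counts in each library.

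Abcb1b (ENSMUSG00000028970, chr5:8798147-8866315, plus strand), the second P-glycoprotein gene, lies 49571 bases beyond Abcb1a. In control replicates 1 to 5 it was at 2.74, 3.05, 2.76, 2.61 and 2.96 log2 CPM, and in APP/PS1 replicates at 3.02, 2.69, 3.00, 3.12 and 2.79. It was higher in APP/PS1 in 3 of 5 pairs and the groups overlapped across most of their ranges. The means were 2.82 ± 0.18 and 2.93 ± 0.18, and the log2 fold change was 0.10 (SE 0.14, 95% interval -0.24 to 0.44, limma adjusted p = 0.897). Without replicate 4 it was -0.0013. Per length, the Abcb1a signal was a median of 496 times that of Abcb1b, with a range from 422 to 595 over the libraries, and the ratio overlapped between control (457 to 595) and APP/PS1 libraries (422 to 544). The size of this ratio depends on the annotated exon lengths used, 5480 bases for Abcb1a and 7990 for Abcb1b. Before division by length the mean CPM was 2494 for Abcb1a and 7.35 for Abcb1b, a smaller contrast.

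The value of Abcb1b is uncertain because the P-glycoprotein genes are close copies. Their longest protein-coding transcripts were identical at 87.7% of 4005 aligned bases, and 18.0% of all 50-base windows of Abcb1b also occurred in an Abcb1a transcript, falling to 8.72% of 100-base windows. A read that lies wholly within such a stretch cannot be placed by its own sequence. How such reads were treated in the counting is not given in the sources used here.

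Abcg2 (ENSMUSG00000029802, chr6:58584523-58695676, plus strand) encodes the breast cancer resistance protein. Its level in control replicates 1 to 5 was 9.81, 9.71, 9.76, 9.81 and 9.93 log2 CPM, and in APP/PS1 replicates it was 9.80, 9.89, 9.85, 9.80 and 9.67. The extremes were the libraries of replicate 5, the control library high and the APP/PS1 library low. The means were both 9.80 ± 0.08, with a log2 fold change of -0.0022 (SE 0.07, limma adjusted p = 0.997). This was the smallest difference of the 8 in size, and the 95% interval ran from -0.18 to 0.18. Its sign changed with the scaling and with the pairs kept. The ratio of Abcb1a to Abcg2 per length, which weighs the main drug pumps of the barrier against each other, lay between 3.73 and 4.60 in control and between 3.76 and 4.64 in APP/PS1 libraries.

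Of the multidrug resistance proteins in the set, Abcc4 (ENSMUSG00000032849, chr14:118482692-118706219, minus strand), a pump for cyclic nucleotides and conjugated anions, was by far the strongest. In control replicates 1 to 5 it was at 9.69, 9.59, 9.52, 9.54 and 9.63 log2 CPM and in APP/PS1 replicates at 9.57, 9.67, 9.74, 9.73 and 9.63. The APP/PS1 library was higher in 4 of 5 pairs, with pair 1 in the other direction. The means were 9.59 ± 0.07 and 9.67 ± 0.07 and the log2 fold change was 0.08 (SE 0.06, 95% interval -0.08 to 0.23, limma adjusted p = 0.845). The estimate stayed above 0 when each pair was left out in turn, between 0.04 and 0.12. Abcg2 was at a median of 0.885 of the Abcc4 level per length, with overlapping ranges of the ratio in control (0.850 to 0.964) and APP/PS1 libraries (0.805 to 0.918).

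Abcc5 (ENSMUSG00000022822, chr16:20331303-20426394, minus strand), another exporter of cyclic nucleotides, stood at 6.68, 6.78, 6.68, 6.70 and 6.60 log2 CPM in control replicates 1 to 5 and at 6.73, 6.63, 6.74, 6.72 and 6.81 in APP/PS1 replicates. The difference was positive in 4 of 5 pairs and was largest in pair 5, at 0.21. The means were 6.69 ± 0.06 and 6.73 ± 0.07, a log2 fold change of 0.04 (SE 0.06, 95% interval -0.11 to 0.19, limma adjusted p = 0.911). Without replicate 5 the estimate was -0.0042.

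Abcc1 (ENSMUSG00000023088, chr16:14361558-14475737, plus strand), which exports glutathione conjugates such as leukotriene C4, was the weakest of the Abcc pumps in the set. Control replicates 1 to 5 gave 5.20, 5.39, 5.31, 5.16 and 5.26 log2 CPM and APP/PS1 replicates 5.34, 5.15, 5.23, 5.39 and 5.29. The pairs pointed both ways, from -0.24 in pair 2 to 0.23 in pair 4. The means were 5.26 ± 0.09 and 5.28 ± 0.09, with a log2 fold change of 0.01 (SE 0.08, 95% interval -0.18 to 0.21, limma adjusted p = 0.976). With library size as the only scaling it was -0.02, a setting that moved the median of all genes to -0.04.

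Abca1 (ENSMUSG00000015243, chr4:53030787-53159895, minus strand), the cholesterol exporter whose promoter carries the LXR element shown above, had the largest fold change of the 8 and the widest spread. In control replicates 1 to 5 its level was 6.45, 6.86, 6.77, 6.60 and 6.91 log2 CPM, and in APP/PS1 replicates it was 7.07, 6.72, 6.81, 6.97 and 6.66. The control library of replicate 1 was the lowest of the 10 and its APP/PS1 partner the highest, so that pair differed by 0.61, while pairs 2 and 5 differed by -0.15 and -0.25. The means were 6.72 ± 0.19 and 6.85 ± 0.17, a log2 fold change of 0.13 (SE 0.14, 95% interval -0.22 to 0.47, limma adjusted p = 0.874). Without replicate 1, the pair with the lowest totals, the estimate was 0.01. The SD of its paired differences was 0.358 log2 units against a median of 0.111 in 1540 genes of like level, and 95.8% of those genes had a smaller SD. Abcb1b was also above most genes of its level, with an SD of 0.356 against a median of 0.208 in 1537 genes, of which 84.3% had a smaller SD.

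Abca2 (ENSMUSG00000026944, chr2:25428703-25448540, plus strand), the intracellular lipid transporter, had the smallest p of the set. It was at 6.22, 6.16, 6.25, 6.20 and 6.20 log2 CPM in control replicates 1 to 5 and at 6.12, 6.17, 6.08, 6.14 and 6.13 in APP/PS1 replicates. All APP/PS1 libraries except replicate 2 were below the lowest control library, and the pair of replicate 2 differed by 0.01 in the other direction. The means were 6.21 ± 0.03 and 6.13 ± 0.03, and the log2 fold change was -0.08 (SE 0.05, unadjusted p = 0.138, limma adjusted p = 0.772). The 95% interval ran from -0.19 to 0.03. Its sign was the same under each alternative processing tried. Without the replicate block the limma adjusted p was 0.110, in a fit that takes the mirrored libraries of a pair as separate cases. Since Abca2 is abundant in myelinating cells, the markers of oligodendrocytes are given beside it: 8 of 10 were in the table, all 8 were lower in APP/PS1 libraries with a median log2 fold change of -2.11, 2 of them had a library at 0, and their summed level ranged from 5.33 to 8.11 log2 CPM in control and from 5.04 to 7.14 in APP/PS1 libraries. Their sum differed by -3.07, 1.81, -2.18, -2.30 and -2.51 in pairs 1 to 5, and pair 2, the 1 pair above 0, was also the 1 pair in which Abca2 was higher. The part of these markers in the value of Abca2 was not tested.

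The 25 other ABC genes in the table, of 45 looked for, were split evenly in direction, with 12 higher and 13 lower in APP/PS1 libraries. None was called at an adjusted p under 0.05, and 2 of 25 had an unadjusted p under 0.05 (limma), a share close to the 8.03% of all genes. Those 2 were also the only ABC genes outside the set with the same direction in all 5 pairs, and both were lower, as 5% of all genes were (2.99% of all genes were higher in all 5 pairs). By subfamily, counting the 8 pumps, 4 of 8 Abca, 3 of 6 Abcb, 5 of 7 Abcc and 0 of 3 Abcg genes had a fold change above 0. Tap1 and Tap2, which form the peptide transporter, had fold changes of 0.11 and 0.02.

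Abcb8, a transporter of the mitochondrial inner membrane, averaged 3.60 ± 0.08 log2 CPM in control libraries and 3.42 ± 0.09 in those of APP/PS1 mice. Its log2 fold change was -0.18 (SE 0.07, unadjusted p = 0.047, limma adjusted p = 0.618). The libraries of replicate 5 were level at 3.51, and the largest difference was -0.42 in pair 1.

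Abca9, a lipid transporter related to Abca8a, was at 1.21, 0.79, 0.90, 1.29 and 0.90 log2 CPM in control replicates 1 to 5 and at 0.27, 0.76, 0.68, 0.12 and 0.66 in APP/PS1 replicates. The groups did not overlap, as those of 7.88% of all genes did not. In these corrected pairs that is nearly the same result as its shared direction in all 5 pairs. APP/PS1 replicates 1 and 4 were well below the others. The log2 fold change was -0.52 (SE 0.19, unadjusted p = 0.036, limma adjusted p = 0.594). The lowest fold changes of any ABC gene were those of Abca8a and Abcc9, named here after their values were seen. Abcc9 encodes the sulphonylurea receptor subunit of the potassium channel of pericytes and smooth muscle.

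Abcc9 was at 4.95, 4.42, 4.45, 4.89 and 3.97 log2 CPM in control replicates 1 to 5 and at 3.18, 3.99, 3.97, 3.29 and 4.34 in APP/PS1 replicates. The APP/PS1 libraries of replicates 1 and 4 were the lowest, and pair 5 ran in the other direction. The log2 fold change was -0.78 (SE 0.33, unadjusted p = 0.058, limma adjusted p = 0.650). Abca8a, which averaged 0.38 ± 0.38 log2 CPM in control libraries and -0.46 ± 0.54 in those of APP/PS1 mice, had a fold change of -0.84 (SE 0.34, unadjusted p = 0.052, limma adjusted p = 0.627). Its paired differences were -1.99, -0.20, -0.80, -1.47 and 0.27. The summed mural markers moved by -1.68, -0.32, -0.43, -1.34 and -0.0043 in pairs 1 to 5, and each of the 11 markers had an unadjusted p under 0.05, was lower and was not called (median log2 fold change -0.76). None of the 11 was at 0. An unadjusted p under 0.05 (limma) with a lower level was found for 5.91% of all genes. The 5 of 8 fibroblast markers in the table were also lower, with a median of -0.50 and summed levels from 4.07 to 4.52 log2 CPM in control and from 3.54 to 4.02 in APP/PS1 libraries. Their sum moved by -0.98, -0.43, -0.82, -0.05 and -0.28 in pairs 1 to 5, so it was nearly level in pair 4, where Abcc9, Abca8a and Abca9 were low. The single fibroblast markers diverged in pair 4. Col1a2 and Dcn moved by -1.19 and -0.46, and Col3a1, Fbln1 and Pdgfra by 0.39, 0.15 and 0.13. The part of mural cells and fibroblasts in the values of Abcc9, Abca8a and Abca9 was not tested.

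**Figure D3:**
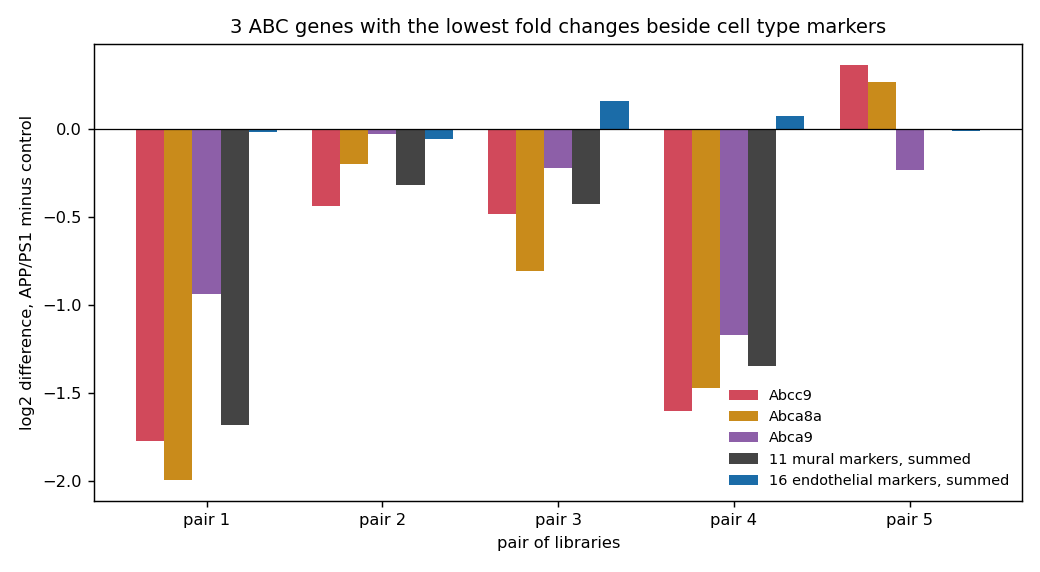
Difference between the APP/PS1 and control library of each replicate pair (log2, vertical axis) for Abcc9, Abca8a and Abca9, the summed level of 11 mural cell markers and that of 16 endothelial markers. Mural markers and the 3 ABC genes were lowest in pairs 1 and 4, where the endothelial sum differed by -0.01 and 0.08.

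**Figure D4:**
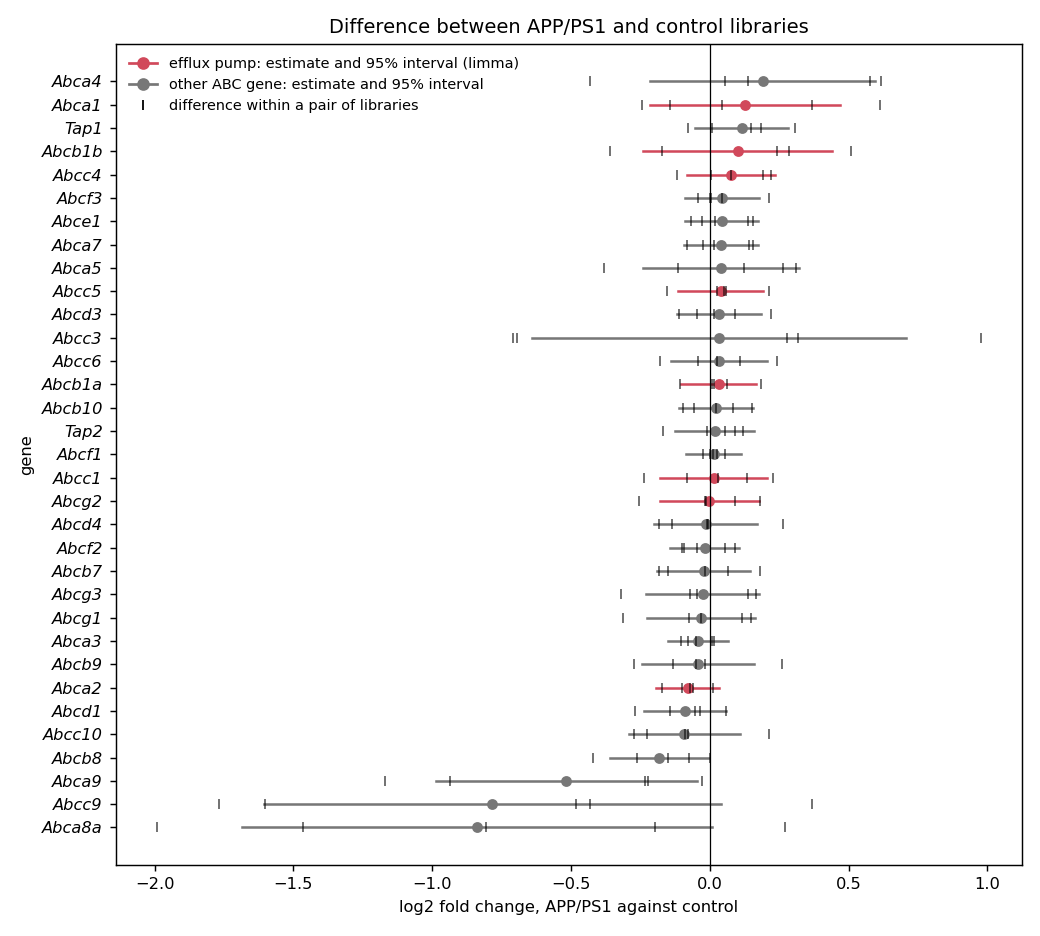
Log2 fold change of the 33 ABC genes with its 95% interval from limma (horizontal axis), with ticks for the 5 paired differences and the 8 pumps in red. The intervals of the 8 pumps all include 0, and the lowest estimates are -0.84 for Abca8a, -0.78 for Abcc9 and -0.52 for Abca9.

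Of 16 regulators of pump transcription, 14 were in the table, with 7 higher, 7 lower and 0 called by limma. The strongest were Ctnnb1, the β-catenin of Wnt signalling, at a fold change of -0.05, the glucocorticoid receptor Nr3c1 at 0.01 and Sp1, which binds GC boxes, at 0.03. The only one with an unadjusted p under 0.05 was the nuclear receptor gene Nr1h3, which encodes LXRα and acts on the LXR element of Abca1. It was at 3.19, 3.13, 3.38, 3.18 and 3.25 log2 CPM in control replicates 1 to 5 and at 3.06, 3.10, 2.85, 3.08 and 3.00 in APP/PS1 replicates. It was lower in 5 of 5 pairs without overlap, with a log2 fold change of -0.21 (SE 0.08, unadjusted p = 0.045, limma adjusted p = 0.608). It was 1 of 14 regulators at an unadjusted p under 0.05, a level that 8.03% of all genes reached. Of all genes, 5% were lower in all 5 pairs and 7.88% had groups without overlap. In these corrected pairs, a shared direction and a lack of overlap are nearly the same result.

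The 8 LXR target genes looked for beside Abca1 were all in the table, with 3 higher and 5 lower, 0 called and a median of -0.03. The list includes Nr1h3 itself, its 1 member with an unadjusted p under 0.05. The strongest 3 were the phosphodiesterase Smpdl3a at a fold change of -0.03, the desaturase Scd2 at 0.01 and the acyltransferase Lpcat3 at -0.04. Abcg1, which passes cholesterol to high-density lipoprotein, was at 4.20 ± 0.09 log2 CPM in control libraries and at 4.16 ± 0.09 in those of APP/PS1 mice. Per length, Abca1 was a median of 4.31 times Abcg1 (3.07 to 5.83).

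Among 7 genes of proteins that hold pumps at the plasma membrane, 6 were higher and 1 lower, with 0 called. The strongest was Slc9a3r2, a PDZ scaffold, at 9.64, 9.83, 9.76, 9.72 and 9.78 log2 CPM in control replicates 1 to 5 and at 10.02, 9.85, 9.92, 9.96 and 9.90 in APP/PS1 replicates. Its groups did not overlap and it was higher in 5 of 5 pairs, with a log2 fold change of 0.18 (SE 0.06, unadjusted p = 0.030, limma adjusted p = 0.577). It was 1 of 7 such genes at an unadjusted p under 0.05, a level that 8.03% of all genes reached. Of all genes, 2.99% were higher in all 5 pairs and 7.88% had groups without overlap. As for Nr1h3, a shared direction and a lack of overlap are nearly the same result in these corrected pairs. Moesin (Msn), which ties membrane proteins to actin, and caveolin 1 (Cav1) had fold changes of 0.07 and 0.05. The 1 gene below 0 was Pdzk1, another PDZ scaffold, named after its values were seen. It was weak, at 0.17 ± 0.12 log2 CPM in control libraries, and the deposited value of APP/PS1 replicate 3 was -4.85, the value of 0 adjusted counts, while the other APP/PS1 libraries lay between -0.02 and 0.27.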

How the data were processed

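RNA of BECs was measured in 10 libraries, 5 per genotype. By the methods of the paper, the authors used STAR for alignment to mm10, HTSeq for counts per gene, edgeR for a filter on low counts (filterByExpr) and for log CPM, and ComBat for batch correction. Versions are not given in the sources used here. The authors deposited log2 CPM of 14106 genes. In every library 100% of these values converted back to whole adjusted counts (tolerance 0.01, prior count 3), which a correction of log values would not leave in general; the order of steps is therefore not settled. Adjusted counts are not reads, and they were given no counting interval.

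Symbols, exon lengths and positions came from GENCODE M21 (GRCm38, which is mm10), in which 14106 of 14106 genes were found. R 4.3.3 and limma 3.58.1 (lmFit, eBayes with 1 prior variance) were used on the deposited log2 values with genotype and 5 replicate pairs as terms, leaving 4 residual degrees of freedom, with Benjamini-Hochberg adjustment over all genes and a threshold of 0.05. The pairing follows the replicate numbers of the labels and the batches drawn in the supplement of the paper, and the mirror-image deviations given above are what batch correction in such pairs leaves. The labels give 4 batches, with replicates 4 and 5 in the same one, which was tried as an alternative. Level per length is CPM from the adjusted counts divided by the union exon length in kb. Fits were tested on simulated data.

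The 8 genes and all lists were chosen with earlier results of these data known. Named genes were the 8 pumps, other ABC genes with an unadjusted p under 0.05 or 1 direction in all 5 pairs, the 5 strongest other ABC genes per length, and, of the regulators, membrane anchors and LXR targets, the 3 strongest and any with an unadjusted p under 0.05. Alternatives were no replicate block, 4 batches, a smaller prior count, a mean of at least 1 log2 CPM, library size alone, median-of-ratios size factors, limma-voom, a mean-variance trend and each pair left out.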

Additional observations from a re-analysis of the deposited data

Results flagged for a closer look

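The desaturase gene Scd2, an LXR target, had a library apart from the rest in both groups. Control replicate 5 was at 6.93 log2 CPM, below the other control libraries at 7.08 to 7.12, and APP/PS1 replicate 5 was at 7.21, above the other APP/PS1 libraries at 7.01 to 7.06. The gap to the nearest library was 0.784 and 0.757 of the range of the group, above the critical value of 0.71 for 5 libraries. These libraries form a pair in which batch correction makes deviations mirror each other, so they are not separate cases. Pdzk1, a PDZ scaffold gene of low level, was at -4.85 log2 CPM (0 adjusted counts) in APP/PS1 replicate 3 and between -0.02 and 0.27 in the other APP/PS1 libraries, a gap of 0.943 of the range. It was added to the search after its values were seen. Of 88 groups of 5 libraries searched 3 stood out, and 4.4 would at the chance rate of 1 in 20.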

How the results depend on the processing

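Of 104 fold changes of the 8 pumps under 13 alternatives, 93 kept their direction, 11 changed sign, and none was called; the smallest adjusted p was 0.110, for Abca2 without the replicate block. With library size alone, Abcb1a was at -0.0054 and Abcc1 at -0.0239, and with median-of-ratios size factors Abcg2 was at 0.0025. With each pair left out, the fold change ranged from -0.0059 to 0.0666 for Abcb1a, from -0.0013 to 0.22 for Abcb1b, from -0.0482 to 0.0612 for Abcg2, from -0.0400 to 0.0762 for Abcc1, from -0.0042 to 0.0873 for Abcc5, from 0.0053 to 0.22 for Abca1, from 0.04 to 0.12 for Abcc4 and from -0.10 to -0.06 for Abca2. The genes called, 0 of 14106, became 648 without the replicate block, 1 with the 4 batches of the labels, and 0 to 5 with a pair left out (5 without replicate 2 and 1 without replicate 5). The unadjusted count was 1133 of all genes, 3049 without the block and 1615 with 4 batches. The other ABC genes with an unadjusted p under 0.05, 2 of 25, became 5 without the replicate block, 4 with 4 batches, 4 with library size alone, 1 with median-of-ratios factors, 0 with limma-voom, 4 with a mean-variance trend and 0 to 4 with a pair left out (0 without replicate 4, 1 without replicate 1 or 3, 4 without replicate 5). With library size alone 7 of the other ABC genes were higher and 18 lower, while the median of all genes moved to -0.04. Without the block the fold changes of the 8 pumps were unchanged and their SEs were smaller. Abcb1a stayed at 0.0319, with an SE of 0.0347 against 0.0549 with the block. That fit takes the libraries of a pair as separate cases, which after batch correction they are not. Its counts and p values, with the 648 genes called, therefore cannot be read as those of independent libraries. The cause of the other shifts was not tested. With 5 pairs and 4 residual degrees of freedom, changes within the intervals given, up to 12.3% for Abcb1a and 38.4% for Abca1, could not be told from 0.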

Other observations

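The genes whose 5 paired differences were nearest to those of each pump were found among 10872 genes with a mean of at least 2 log2 CPM, by the root mean square (RMS) of the gaps in log2 units. The nearest were Ankib1 to Abcb1a (RMS 0.0149), Vim to Abcb1b (0.0693), 2900097C17Rik to Abcg2 (0.0379), Atp6v0c-ps2 to Abcc1 (0.0190), Mcph1 to Abcc4 (0.0381), Zc3h12c to Abcc5 (0.0153), Cbx2 to Abca1 (0.0967) and Psmb5 to Abca2 (0.0221). Among ABC genes the nearest were Abcc6 to Abcb1a (0.0760), Abca5 to Abcb1b (0.178), Abcd4 to Abcg2 (0.0873), Abcf2 to Abcc1 (0.130), Abcb1a to Abcc4 (0.131), Abca7 to Abcc5 (0.0687), Abcb1b to Abca1 (0.208) and Abca3 to Abca2 (0.0549). For each pump, between 90 and 970 genes were nearer than that ABC gene. With 5 pairs these distances only describe the libraries.

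Markers of other cells were also counted. Of the 9 astrocyte markers measured, 8 were lower and 3 had an unadjusted p under 0.05 (median log2 fold change -0.86), while the summed level was 7.43 to 7.74 log2 CPM in control and 7.42 to 7.75 in APP/PS1 libraries. Of 5 neuron markers measured, 4 were lower and 3 had an unadjusted p under 0.05 (median -0.39). Of 6 choroid plexus markers, 5 were lower and 4 had an unadjusted p under 0.05 (median -0.83). Of 9 microglia markers, 5 were lower and 0 had an unadjusted p under 0.05 (median -0.03). None of these was called by limma. Over all genes, 8.03% had an unadjusted p under 0.05 (limma), and 51.8% had a log2 fold change below 0.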
